A study of Mus musculus with 12 samples.

Results

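The interaction of Smad3 genotype with diet is a difference of differences. For each gene, the effect of a high fat diet in wild-type mice (WT_HFD minus WT_RD) was subtracted from the same effect in mice labelled Smad3-/- (KO_HFD minus KO_RD). It used 8 of the 12 arrays of the series, 2 for each of 4 groups, and all 18194 genes that had a probe set of their own. The KO_HFD group held Smad3-/- mice given a diet with 55% fat, and KO_RD held Smad3-/- mice on regular diet, both of a mixed C57BL/6 and NIH Black Swiss background. The WT_HFD group held C57BL/6 wild-type mice given the 55% fat diet, and WT_RD held C57BL/6 wild-type mice on regular diet. The knockout is a targeted disruption of Smad3, carried by both KO groups, so genotype cannot be told apart from strain background. The other 4 arrays came from diet-induced obese mice, 2 with an antibody against TGF-beta (clone 1D11) and 2 with control IgG (clone 13C4), injected into the peritoneum for 8 weeks while on high fat diet. They share no array with the interaction and served as a further readout, taken from the same fit. The labels name neither ages nor the tissue taken. They do not say whether arrays a and b of a group came from separate mice, and p-values then measure no more than the spread between 2 arrays, which may be technical.

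Smad3 is the protein that carries the signal of activated TGF-beta and activin receptors to the nucleus, where it binds DNA with Smad4 and turns on genes of extracellular matrix, contractile proteins and growth arrest. In fat tissue, TGF-beta signalling is known to restrain the formation of fat cells and to favour a fibroblast or smooth muscle fate of their precursors. White fat cells store triglyceride and secrete leptin and adiponectin, whereas brown and beige fat cells burn fuel through the mitochondrial uncoupling protein Ucp1. The series title asks whether blocking TGF-beta and Smad3 protects from obesity and diabetes, and the interaction asks whether the response to dietary fat depended on Smad3 genotype.

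Levels are log2 intensities, so a difference of 1 is a factor of 2, and an interaction of 1 means that the diet ratio of the knockout was 2 times that of the wild type. Errors given after ± are standard errors, and a gene passed where its adjusted p was under 0.05. Adipoq, the gene of adiponectin, a hormone of fat cells, measured 13.92 and 13.92 on the KO_HFD arrays, 13.12 and 13.01 on KO_RD, 13.73 and 13.78 on WT_HFD and 13.91 and 14.00 on WT_RD, against array medians of 6.32 to 6.39. It was among the brightest genes on every array, whatever the group. Arrays a and b of a group correlated across genes at r = 0.992 to 0.994, and their SD of difference was 0.18 to 0.21. The 3 probe sets for Smad3 did not show the knockout. The brightest measured 9.14 and 9.03 on the KO_HFD arrays, 9.10 and 9.16 on KO_RD, 8.88 and 8.95 on WT_HFD and 8.86 and 8.94 on WT_RD. Every Smad3-/- array lay slightly above every wild-type array, so the transcript was not lower on the arrays labelled Smad3-/-, and its interaction was -0.06 ± 0.15 (adjusted p = 0.86). The other 2 probe sets were dim and overlapped between genotypes, at 5.88 to 6.31 and 5.11 to 5.43 on Smad3-/- arrays, against 5.68 to 6.04 and 5.11 to 5.54 on wild-type arrays. The labels do not place the probe sets relative to the disruption, so genotype rests on the labels throughout. None of 6 sex-linked genes passed; the Y-linked Eif2s3y measured between 5.67 and 6.15 on the 8 arrays and the X-inactivation RNA Xist between 7.96 and 8.28. The RNA quality measure, the 3' minus 5' signal of Gapdh, was 0.28 to 0.50 on the 6 arrays of KO_HFD, KO_RD and WT_HFD, against 0.12 and 0.14 in WT_RD, a difference of differences of -0.26. Its part in the results was not tested.

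In all, 3413 of 18194 genes (18.8%) passed for the interaction. It was positive in 2181 genes (12.0%), where the diet effect in the knockout lay above that in the wild type. It was negative in 1232 (6.77%). Counts per list below are to be read against these shares. The median over all genes was -0.02, the SD 0.63, and 1184 of the genes that passed exceeded 1 log2 in size while 268 exceeded 2. With a diet difference under 0.5 counted as flat, 839 of the positive genes differed by diet in the knockout alone and 355 in the wild type alone. A further 205 moved in opposite directions, 20 in the same direction, and 762 were flat in both. The limit sets these counts: at 0.3, 662 positive genes were opposite and 78 flat in both, and at 1, 19 were opposite and 1761 flat in both. Among negative genes the counts at 0.5 were 357 in the knockout alone, 265 in the wild type alone, 180 opposite, 19 in the same direction and 411 flat in both.

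**Figure D1:**
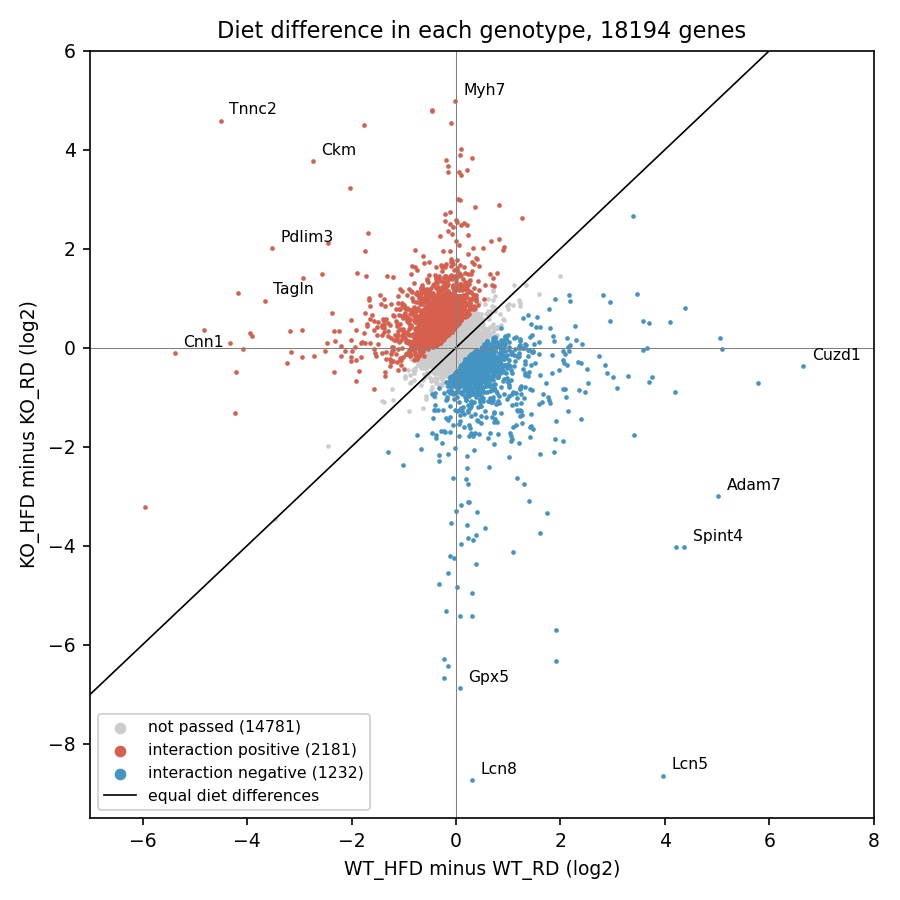
Diet difference of each of 18194 genes in wild-type mice (horizontal, WT_HFD minus WT_RD, log2) and in Smad3-/- mice (vertical, KO_HFD minus KO_RD, log2), each point a gene and the black line equal differences. The 2181 positive genes lie above the line, out to Tnnc2, and the 1232 negative ones below it, out to Lcn5, with many of the extreme genes close to 1 axis.

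In many of these genes 1 of the 4 groups stood apart from the other 3. A group was counted as standing apart where the other 3 means spanned under 0.5 of the range of all 4. By this description KO_RD was low in 797 positive genes (36.5%), WT_RD was high in 383, KO_HFD was high in 219 and WT_HFD was low in 56. Of the negative genes, KO_RD was high in 310 (25.2%), WT_HFD was high in 133, WT_RD was low in 110 and KO_HFD was low in 63. No single group stood apart in the other 1342 genes, and with a limit of 0.33 of the range that number was 2450.

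**Figure D2:**
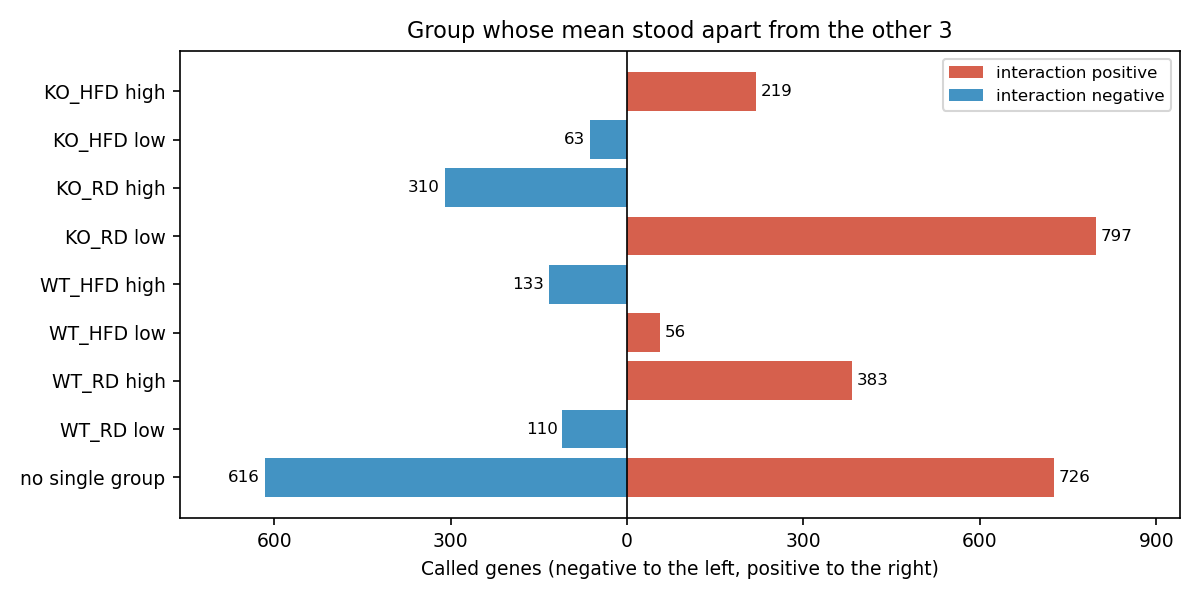
Number of genes that passed for the interaction, by the group whose mean stood apart from the other 3 (rows), with positive genes to the right and negative genes to the left. KO_RD standing low (797 genes) and WT_RD standing high (383) are the most frequent patterns of a positive interaction, and KO_RD standing high (310) of a negative one.

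Ucp1, the uncoupling protein of brown fat, was far higher in the knockout on both diets, and its interaction with diet was small beside that. It measured 11.67 and 11.86 on the KO_HFD arrays, 12.44 and 12.32 on KO_RD, 6.37 and 6.33 on WT_HFD and 6.40 and 6.44 on WT_RD. The knockout and wild-type arrays did not overlap, KO_HFD was below KO_RD, and the wild-type diets lay close together. The interaction of Ucp1 was -0.54 ± 0.15 (adjusted p = 0.0094), its diet difference being -0.61 in the knockout and -0.07 in the wild type. Ucp1 did not pass without KO_HFD array a (-0.45, adjusted p = 0.074), nor against a minimum of 1.5-fold (adjusted p = 1). Cidea, a lipid droplet protein of brown fat, measured 11.69 and 11.82 on the KO_HFD arrays, 12.06 and 11.86 on KO_RD, 7.46 and 6.94 on WT_HFD and 7.27 and 7.06 on WT_RD, and its interaction of -0.24 did not pass (adjusted p = 0.44, 95% interval -0.62 to 0.13).

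Of 31 measured genes of brown and beige fat, 3 (9.68%) had a positive and 4 (12.9%) a negative interaction, with a median of -0.11. Over all genes the shares were 12.0% and 6.77%. Against a minimum of 1.5-fold, 0 genes of the list were positive and 1 was negative. Without array b of KO_HFD, KO_RD or WT_HFD, or array a of WT_RD, 1 was positive. The negative ones besides Ucp1 were Slc27a2 (-1.29 ± 0.20), an acyl-CoA synthetase, Slc29a1 (-0.81 ± 0.19), a nucleoside transporter, and Plin5 (-0.56 ± 0.15), a lipid droplet protein. The positive ones were the potassium channel Kcnk3 (0.89 ± 0.16), the fatty acid binding protein Fabp3 (0.63) and the secreted factor Nrg4 (0.59). For Slc27a2 it was WT_RD that stood low, at 5.76 and 6.04, with 7.10 and 7.39 in WT_HFD and no overlap. Kcnk3 had 0.40 and did not pass with probe sets averaged by gene (adjusted p = 0.15), its next brightest giving 0.08, and that of Fabp3 gave 0.08. The next brightest probe set of Plin5 gave -0.38 and did not pass (adjusted p = 0.18). Plin5 did not pass without WT_RD array b (-0.43, adjusted p = 0.081). The regulators Prdm16 (-0.13, adjusted p = 0.78), Ppargc1a (0.32, adjusted p = 0.38) and Ppara (-0.36, adjusted p = 0.21) did not pass.

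White fat cell genes had a positive interaction as a rule, and KO_RD was the low group. Of 30 measured white adipocyte genes, 26 were positive and 2 negative, with a median of 1.08, and KO_RD stood low in 17 of them. The mean level of the list was 11.64 and 11.70 on the KO_HFD arrays, 10.76 and 10.59 on KO_RD, 11.90 and 12.00 on WT_HFD and 11.99 and 12.03 on WT_RD. The KO_RD arrays were the lowest, without overlap. The same KO_RD arrays were the highest for the epididymis and testis list, at 8.57 and 8.59 against 5.65 to 7.10 elsewhere, and for the epithelium list, at 7.70 and 7.75 against 7.02 to 7.45, and the part of those tissues was not tested. In bulk tissue, fewer fat cells and less RNA per fat cell cannot be told apart.

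Cidec, which fuses lipid droplets into large ones, measured 12.81 and 12.76 on the KO_HFD arrays, 11.03 and 11.09 on KO_RD, 12.75 and 12.86 on WT_HFD and 12.91 and 12.89 on WT_RD. KO_RD lay below the other 6 arrays, which were close together, and the interaction was 1.83 ± 0.14 (adjusted p = 3.2e-11). Sncg, gamma-synuclein, measured 11.35 and 11.61 on the KO_HFD arrays, 9.13 and 8.79 on KO_RD, 12.32 and 12.53 on WT_HFD and 12.30 and 12.25 on WT_RD and had an interaction of 2.36 ± 0.16. Rarres2, the secreted adipokine chemerin, followed with 2.04 ± 0.16, and its next brightest probe set gave 2.07.

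Lep, the gene of the satiety hormone leptin, measured 9.30 and 9.30 on the KO_HFD arrays, 7.39 and 7.17 on KO_RD, 11.53 and 11.74 on WT_HFD and 11.01 and 11.24 on WT_RD. All wild-type arrays were above all knockout arrays, the diets did not overlap within either genotype, and the interaction was 1.51 ± 0.16 (adjusted p = 2.7e-08). Pparg, the transcription factor that drives fat cell formation, measured 9.74 and 9.80 on the KO_HFD arrays, 8.83 and 8.60 on KO_RD, 9.42 and 9.78 on WT_HFD and 10.62 and 10.46 on WT_RD, high in WT_RD and low in KO_RD. Its diet difference was 1.06 in the knockout and -0.93 in the wild type, an interaction of 1.99 ± 0.16. Adipoq itself had 1.05 ± 0.14.

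The 2 negative members were Mest and Sfrp5, and 1 gene was negative without array a or b of KO_HFD, or array b of KO_RD, WT_HFD or WT_RD. Mest, a gene linked to fat cell enlargement, measured 8.24 and 8.32 on the KO_HFD arrays, 8.34 and 8.23 on KO_RD, 10.94 and 10.95 on WT_HFD and 9.65 and 9.83 on WT_RD. The diet difference was -0.01 in the knockout and 1.20 in the wild type, with no overlap between the wild-type diets, and the interaction was -1.21 ± 0.14 (adjusted p = 1.6e-07). Sfrp5, a secreted inhibitor of Wnt signalling, had -0.47 ± 0.17. Fabp4, a fatty acid carrier, (0.17, adjusted p = 0.54) and the glycerol channel Aqp7 (0.20, adjusted p = 0.58) did not pass.

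Genes of triglyceride breakdown and of its hormonal control had a positive interaction in 8 of 13 measured and a negative one in 0, with a median of 0.89. Abhd5, the activator of the first lipase of fat stores, measured 8.98 and 9.23 on the KO_HFD arrays, 7.81 and 7.53 on KO_RD, 7.80 and 7.98 on WT_HFD and 9.65 and 9.56 on WT_RD. It was high in KO_HFD and WT_RD and low in the other groups, without overlap, and its interaction was 3.15 ± 0.16 (adjusted p = 1.2e-14), a diet ratio 8.9 times as high in the knockout as in the wild type. The next brightest probe set of Abhd5 gave 1.80. The lipases Pnpla2 (0.89 ± 0.14) and Lipe (0.95 ± 0.15), the insulin-activated phosphodiesterase Pde3b (1.44 ± 0.14), the natriuretic peptide clearance receptor Npr3 (1.63 ± 0.15) and the protein kinase A subunit Prkar2b (1.27 ± 0.15) passed too. On the next brightest probe sets the values were 0.28 for Lipe (adjusted p = 0.49) and 0.41 for Pnpla2 (adjusted p = 0.17).

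Fatty acid and triglyceride synthesis was positive in 21 of 27 measured genes and negative in 1, with a median of 0.85. Acaca, the acetyl-CoA carboxylase that commits carbon to fatty acids, measured 12.28 and 12.28 on the KO_HFD arrays, 12.14 and 11.90 on KO_RD, 11.19 and 11.42 on WT_HFD and 12.76 and 12.87 on WT_RD and had an interaction of 1.77 ± 0.15, while its next brightest probe set gave 0.01 (adjusted p = 0.99). Me1, malic enzyme, which supplies reducing power for synthesis, measured 11.86 and 11.86 on the KO_HFD arrays, 11.51 and 11.16 on KO_RD, 11.05 and 11.13 on WT_HFD and 12.57 and 12.60 on WT_RD. It was highest in WT_RD, its diet difference was 0.52 in the knockout and -1.49 in the wild type, and the interaction was 2.02 ± 0.15.

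Fasn, the fatty acid synthase, measured 13.89 and 13.87 on the KO_HFD arrays, 13.93 and 13.89 on KO_RD, 13.26 and 13.28 on WT_HFD and 14.15 and 14.16 on WT_RD. WT_HFD alone was low, and the interaction was 0.86 ± 0.14 (adjusted p = 2.7e-05). The elongase Elovl6 (1.24 ± 0.15) and transketolase, Tkt (1.68 ± 0.15), shared that pattern, with WT_HFD low. The negative member was the desaturase Fads2 (-0.75 ± 0.16), which stood low in KO_HFD. The lipogenic regulators Srebf1 (0.18, adjusted p = 0.51) and Mlxipl (0.43, adjusted p = 0.065) did not pass. Scd1, a desaturase near the top of the array scale, did not pass on its brightest probe set (0.10 ± 0.15), while its next brightest gave 2.13 (adjusted p = 5.9e-12 over all probe sets).

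In insulin signalling and glucose transport, 10 of 22 measured genes were positive and 1 negative, with a median of 0.34. Slc2a4, the insulin-responsive glucose transporter, measured 10.13 and 10.27 on the KO_HFD arrays, 9.55 and 9.56 on KO_RD, 9.19 and 9.51 on WT_HFD and 10.38 and 10.41 on WT_RD. Its level was lower in WT_HFD than in WT_RD without overlap, its diet difference was 0.64 in the knockout, and the interaction was 1.68 ± 0.15 (adjusted p = 1.2e-09). The kinase Akt2 (0.88 ± 0.16), the adaptor Irs1 (0.90 ± 0.17), the transcription factor Foxo1 (1.07 ± 0.16) and Pik3r1 (1.22 ± 0.18), the regulatory subunit of PI3-kinase, passed as well. The growth factor receptor Igf1r was negative at -1.07 ± 0.17, high in KO_RD.

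Mitochondrial genes mostly had a positive interaction of moderate size. Of 73 measured genes of oxidative phosphorylation, 56 were positive and 1 negative, with a median of 0.72. KO_HFD stood high in 20 of them and WT_HFD low in 7, and no single group stood apart in 30. The list averaged 11.42 and 11.56 on the KO_HFD arrays, 11.23 and 11.02 on KO_RD, 10.66 and 10.92 on WT_HFD and 11.10 and 11.04 on WT_RD.

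Ndufs1, the largest subunit of complex I, measured 9.48 and 9.62 on the KO_HFD arrays, 8.84 and 8.87 on KO_RD, 8.17 and 8.47 on WT_HFD and 9.07 and 8.82 on WT_RD. KO_HFD was highest and WT_HFD lowest without overlap, and the interaction was 1.32 ± 0.17 (adjusted p = 5.1e-07). Sdhb, the iron-sulfur subunit of complex II, measured 11.87 and 12.12 on the KO_HFD arrays, 11.81 and 11.54 on KO_RD, 10.27 and 10.41 on WT_HFD and 11.32 and 11.22 on WT_RD, with WT_HFD lowest and an interaction of 1.25 ± 0.16. Ndufs5 of complex I had 1.57 ± 0.19 and Atp5c1 of the ATP synthase 1.12 ± 0.15, although the next brightest probe set of Atp5c1 gave 0.05 (adjusted p = 0.93). The 1 negative gene was Atpif1 (-1.06 ± 0.17), which encodes the inhibitor of the ATP synthase.

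The tricarboxylic acid cycle was positive in 19 of 24 measured genes and negative in 0, with a median of 0.81, and WT_HFD stood low in 6 of them. Pdhb of the pyruvate dehydrogenase complex measured 10.99 and 11.08 on the KO_HFD arrays, 10.86 and 10.72 on KO_RD, 9.29 and 9.72 on WT_HFD and 10.41 and 10.62 on WT_RD, an interaction of 1.25 ± 0.17. Idh1, the cytosolic isocitrate dehydrogenase, had 1.72 ± 0.15 and stood low in KO_RD. Fatty acid oxidation was positive in 17 of 26 and negative in 1, with a median of 0.61. Echs1, an enoyl-CoA hydratase, measured 10.72 and 10.94 on the KO_HFD arrays, 10.12 and 9.81 on KO_RD, 10.01 and 10.03 on WT_HFD and 10.42 and 10.29 on WT_RD, high in KO_HFD without overlap, and had 1.20 ± 0.15. The negative gene was Cpt1a (-0.51 ± 0.15), the liver-type carnitine transferase that admits fatty acids to mitochondria, while Cpt2 inside them had 0.95 ± 0.15. With probe sets averaged by gene, 0 genes of the list were negative. For Cpt2 the next brightest probe set gave -0.13 (adjusted p = 0.82).

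Glycolysis was positive in 11 of 17 and negative in 1, with a median of 0.54. The muscle enzymes Eno3 (2.55 ± 0.17) and Pfkm (1.48 ± 0.15) were high in KO_HFD, and Aldoc (-1.51 ± 0.23), the brain-type aldolase, was high in KO_RD. Aldoc had a next brightest probe set at -0.17 (adjusted p = 0.73). Of 28 mitochondrial regulators, 7 were positive (25.0%) and 0 negative, with a median of 0.11, against 12.0% and 6.77% of all genes. With probe sets averaged by gene, 3 of them were positive. The fusion protein Mfn2 led the list (1.38 ± 0.16). Its next brightest probe set gave -0.10 (adjusted p = 0.88).

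Quantile normalization was applied again to the 8 diet and genotype arrays, with the antibody arrays left as deposited. The medians became 0.43 for oxidative phosphorylation, with 50 positive and 3 negative, and 0.33 for fatty acid oxidation, with 12 positive and 2 negative. For glycolysis the median became 0.22, with 8 positive and 2 negative. Of the 28 mitochondrial regulators, 4 were positive. Against a minimum of 1.5-fold, 8 of 73 oxidative phosphorylation and 6 of 24 tricarboxylic acid cycle genes were positive. The same held for 1 of 26 fatty acid oxidation and 3 of 17 glycolysis genes. Skeletal muscle genes, described next, were high in the same KO_HFD arrays, and their part in the mitochondrial and glycolytic values was not tested.

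Skeletal muscle genes had the highest median of all lists. Of 45 measured, 42 were positive and 0 negative, with a median of 2.85, and KO_HFD stood high in 35. The list averaged 9.16 and 9.27 on the KO_HFD arrays, 6.60 and 6.60 on KO_RD, 6.16 and 6.14 on WT_HFD and 6.60 and 6.59 on WT_RD. Its summed signal on the log2 scale was 15.57 to 15.70 in KO_HFD, 12.76 to 12.77 in KO_RD, 12.26 to 12.35 in WT_HFD and 14.40 to 14.41 in WT_RD.

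Myh7, the slow myosin heavy chain, measured 9.86 and 10.02 on the KO_HFD arrays, 5.03 and 4.88 on KO_RD, 5.13 and 5.17 on WT_HFD and 5.29 and 5.04 on WT_RD. KO_HFD alone was high, and the interaction was 5.00 ± 0.20 (adjusted p = 2e-17). Myh4, the fastest myosin, measured 9.92 and 10.11 on the KO_HFD arrays, 6.12 and 6.12 on KO_RD, 3.64 and 3.67 on WT_HFD and 3.65 and 3.50 on WT_RD and had 3.81 ± 0.19. For Myh4, both knockout groups were above both wild-type groups, and its next brightest probe set gave -0.09 (adjusted p = 0.86).

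Tnnc2, troponin C of fast fibres, measured 11.96 and 12.12 on the KO_HFD arrays, 7.64 and 7.27 on KO_RD, 5.35 and 5.60 on WT_HFD and 9.99 and 9.95 on WT_RD. Here WT_RD was high as well as KO_HFD, and the diet differences of 4.59 in the knockout and -4.50 in the wild type made the highest interaction of any gene, 9.08 ± 0.17. Ckm, the muscle creatine kinase, measured 11.90 and 11.99 on the KO_HFD arrays, 8.24 and 8.09 on KO_RD, 6.55 and 6.08 on WT_HFD and 9.18 and 8.93 on WT_RD, an interaction of 6.51 ± 0.18, but its next brightest probe set gave 0.13 (adjusted p = 0.77). Acta1, skeletal alpha-actin, had 6.27 ± 0.16, the ventricular light chain Myl2 5.27 ± 0.21, the myosin binding protein Mybpc1 5.25 ± 0.22, and the troponins Tnnt3 5.23 ± 0.18 and Tnni2 4.64 ± 0.20. The next brightest probe sets gave 1.41 for Mybpc1 and 1.37 for Tnni2, both passing.

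The 3 members that did not pass were Jph1 (-0.25, adjusted p = 0.39), Ampd1 (0.26, adjusted p = 0.44) and Myh8 (0.35, adjusted p = 0.25). Regulators of muscle formation were positive in 2 of 17 (11.8%) and negative in 1 (5.88%), with a median of -0.01, shares close to the 12.0% and 6.77% of all genes. Myf6, the factor of mature fibres, was positive (0.70 ± 0.21), as was Fst (1.64 ± 0.20), the activin antagonist follistatin, and the adhesion molecule Ncam1 was negative (-1.09 ± 0.20). Without KO_HFD array b, WT_HFD array a or WT_RD array a, 1 of these regulators was positive, Myf6 being the one lost. Ncam1 did not pass with probe sets averaged by gene (-0.30, adjusted p = 0.16).

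**Figure D3:**
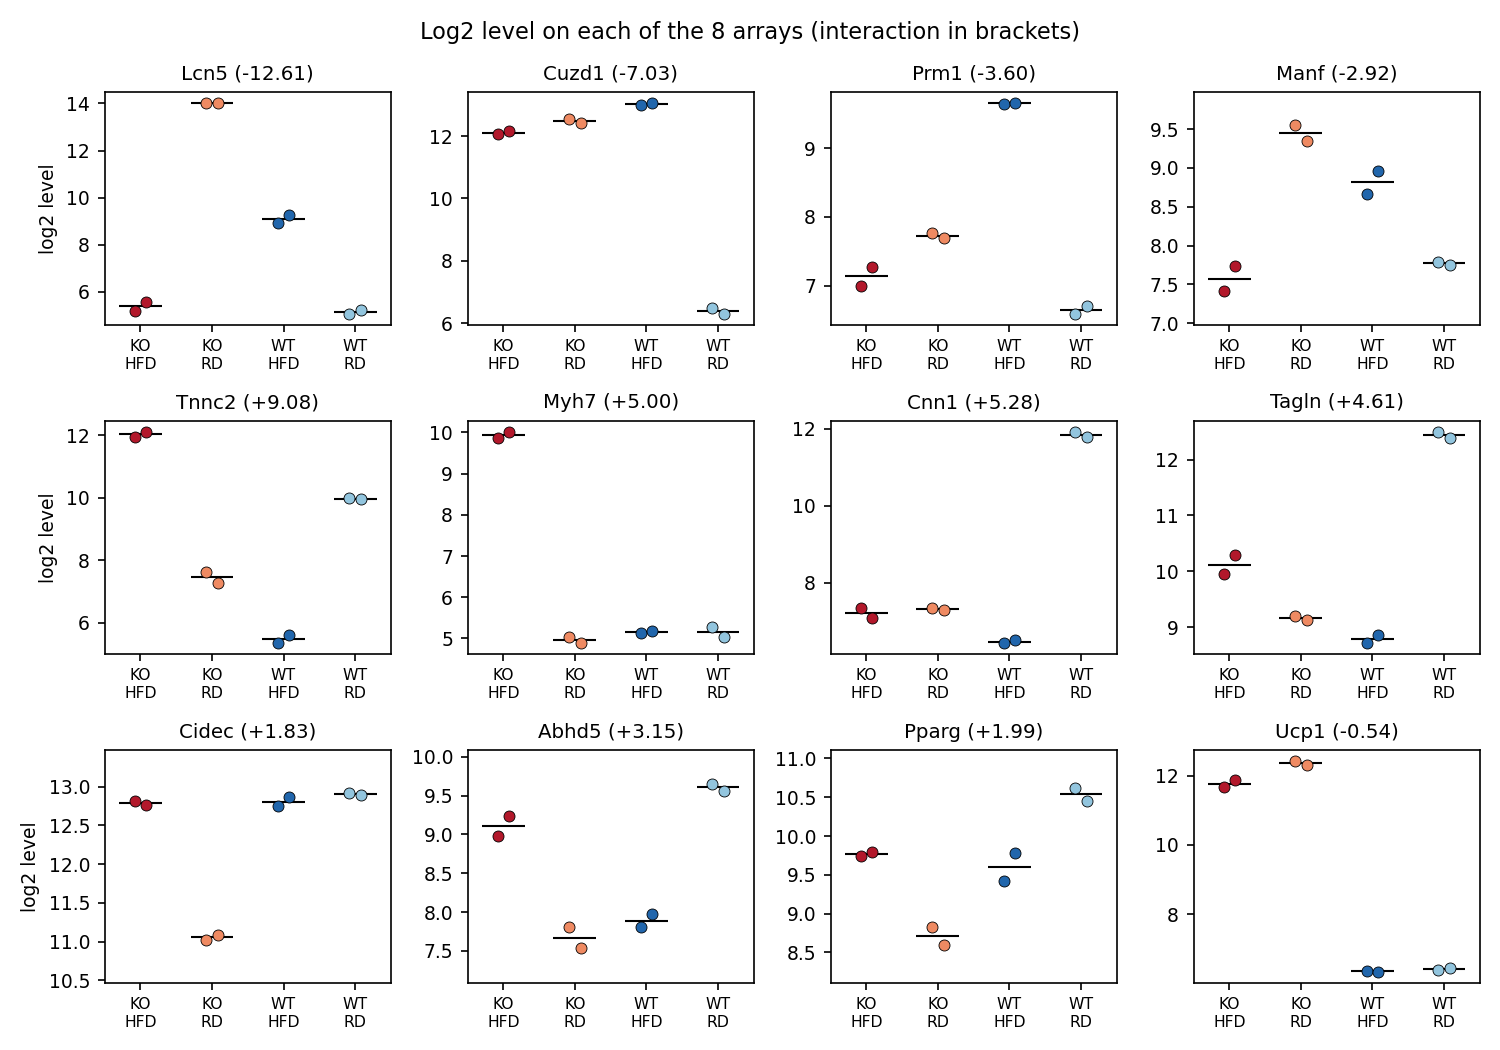
Log2 level of 12 genes on each of the 8 arrays (points, 2 per group) with group means (bars), KO_HFD and KO_RD left of WT_HFD and WT_RD, and the interaction in brackets. Each gene has its own vertical range, and a different group stands apart from gene to gene: KO_RD for Lcn5 and Cidec, KO_HFD for Myh7, WT_HFD for Prm1, WT_RD for Cuzd1, Cnn1 and Tagln.

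Smooth muscle genes were positive too, but with WT_RD as the high group. Among 27 measured smooth muscle and pericyte genes, 21 were positive and 0 negative, with a median of 2.26, and WT_RD stood high in 14. The list averaged 8.32 and 8.34 on the KO_HFD arrays, 8.08 and 8.06 on KO_RD, 7.82 and 7.98 on WT_HFD and 9.94 and 10.05 on WT_RD.

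Cnn1, calponin, which damps smooth muscle contraction, measured 7.33 and 7.08 on the KO_HFD arrays, 7.35 and 7.28 on KO_RD, 6.42 and 6.51 on WT_HFD and 11.93 and 11.78 on WT_RD. WT_RD alone was high, the diet difference was -0.11 in the knockout and -5.39 in the wild type, and the interaction was 5.28 ± 0.17 (adjusted p = 4.2e-19). Tagln, an actin cross-linker of smooth muscle, measured 9.94 and 10.29 on the KO_HFD arrays, 9.21 and 9.12 on KO_RD, 8.71 and 8.86 on WT_HFD and 12.50 and 12.39 on WT_RD and had 4.61 ± 0.16. Myh11, the smooth muscle myosin, measured 7.67 and 7.71 on the KO_HFD arrays, 7.60 and 7.09 on KO_RD, 6.40 and 6.69 on WT_HFD and 11.48 and 11.28 on WT_RD and had 5.18 ± 0.19, while its next brightest probe set gave 0.34 (adjusted p = 0.4).

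Acta2, smooth muscle actin, measured 11.53 and 11.63 on the KO_HFD arrays, 11.23 and 11.23 on KO_RD, 11.36 and 11.53 on WT_HFD and 13.24 and 13.46 on WT_RD, an interaction of 2.26 ± 0.15. The tropomyosin Tpm2 (5.29 ± 0.17), which stands on both muscle lists, and the Z-disc protein Pdlim3 (5.53 ± 0.19) were among the 12 highest of all genes. Pdlim3 was high in KO_HFD too, at 7.62 and 7.76, with 8.87 and 8.99 in WT_RD and 5.35 to 5.81 in KO_RD and WT_HFD. Myocd, the coactivator of serum response factor in smooth muscle, had 1.16 ± 0.23. Its next brightest probe set gave 0.31 (adjusted p = 0.47). Pericyte genes of the list that did not pass were Abcc9 (0.05, adjusted p = 0.89), Kcnj8 (0.14, adjusted p = 0.67), Notch3 (0.22, adjusted p = 0.42) and Cspg4 (0.45, adjusted p = 0.06). A CArG box, the site that serum response factor binds, was searched in 18 promoters, which belong to 16 of the 21 positive smooth muscle genes. It was found in 1 (5.56%), that of Myl9, against 1.63% of all 32851 promoters. A single promoter is too few to compare these shares.

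Genes that respond to TGF-beta were positive in 14 of 31 and negative in 1, with a median of 0.48. WT_RD stood high in 7 of them, and Cnn1, Tagln, Tpm1 and Acta2 of this list are smooth muscle genes too. Ccn2, connective tissue growth factor, measured 8.17 and 8.41 on the KO_HFD arrays, 8.32 and 8.22 on KO_RD, 7.76 and 7.86 on WT_HFD and 9.66 and 9.83 on WT_RD, and WT_RD was again high, with 1.95 ± 0.15. Thbs1, the matrix protein thrombospondin 1 that activates latent TGF-beta, measured 6.07 and 6.34 on the KO_HFD arrays, 5.67 and 5.59 on KO_RD, 7.47 and 7.42 on WT_HFD and 8.77 and 8.79 on WT_RD, lower in the knockout than in the wild type on both diets, and had 1.91 ± 0.17. Tgif1, a corepressor of Smads, was negative (-1.23 ± 0.19).

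Of 38 ligands, receptors and Smads of the TGF-beta family, 9 were positive (23.7%) and 2 negative (5.26%), with a median of 0.10. Over all genes the shares were 12.0% and 6.77%. The ligand Tgfb1 measured 7.76 and 7.85 on the KO_HFD arrays, 7.63 and 7.82 on KO_RD, 7.97 and 8.19 on WT_HFD and 8.20 and 8.21 on WT_RD, and its interaction of 0.20 did not pass (adjusted p = 0.5, 95% interval -0.14 to 0.55). Tgfb3 had 1.07 ± 0.17. The type I receptor Tgfbr1 did not pass (-0.11, adjusted p = 0.76), whereas the type II receptor Tgfbr2 (0.75 ± 0.15) and the coreceptors Tgfbr3 (1.16 ± 0.16) and Eng (1.06 ± 0.18) did. Negative were the BMP receptor Bmpr1b (-0.92 ± 0.21) and the inhibin subunit Inha (-0.67 ± 0.22). The next brightest probe sets gave 0.14 for Tgfbr2 (adjusted p = 0.78), 0.26 for Tgfbr3 (adjusted p = 0.42) and 0.03 for Bmpr1b (adjusted p = 0.97). Without array b of KO_HFD or KO_RD, array a or b of WT_HFD, or array a of WT_RD, 1 was negative.

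Extracellular matrix genes were positive in 28 of 44 and negative in 1, with a median of 0.83, and KO_RD stood low in 12 and WT_RD high in 6. Fn1, fibronectin, measured 9.97 and 10.11 on the KO_HFD arrays, 8.91 and 8.74 on KO_RD, 10.15 and 10.19 on WT_HFD and 10.87 and 10.82 on WT_RD, KO_RD below all other arrays, with 1.89 ± 0.14. Col4a1 of basement membranes measured 10.16 and 10.31 on the KO_HFD arrays, 9.84 and 9.68 on KO_RD, 10.57 and 10.80 on WT_HFD and 11.78 and 11.75 on WT_RD, WT_RD above the others, with 1.55 ± 0.15. Col3a1 of fibrils had 1.44 ± 0.16, but Col1a1, the main fibril collagen, did not pass (0.23 ± 0.17, adjusted p = 0.45), nor did Col1a2 (0.20, adjusted p = 0.44). On their next brightest probe sets the values were 0.29 for Col3a1 (adjusted p = 0.48) and 0.71 for Fn1 (adjusted p = 0.019). The negative gene was Lox (-0.45 ± 0.15), the collagen cross-linking enzyme. With the fit over the 8 arrays only, or with arrays centred on their medians, 0 genes of the list were negative. With quantile normalization applied again, 2 were. Fibroblast and precursor genes were positive in 10 of 24, led by Efemp1 (2.07 ± 0.20), and negative in Cd24a (-1.38 ± 0.17).

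The lowest interactions of all genes came from transcripts of the epididymis, the duct that matures sperm. Of 28 measured epididymis and testis genes, 22 were negative and 0 positive, with a median of -3.04. The list averaged 6.18 and 6.29 on the KO_HFD arrays, 8.57 and 8.59 on KO_RD, 7.06 and 7.10 on WT_HFD and 5.68 and 5.65 on WT_RD. KO_RD stood high in 12 of the genes, WT_HFD in 7, and WT_RD stood low in 2. The strain label of the Smad3-/- mice mentions NIH Black Swiss females, and whether it gives the sex of the mice themselves is not said.

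Lcn5, an epididymal retinoid carrier, measured 5.21 and 5.55 on the KO_HFD arrays, 14.01 and 14.04 on KO_RD, 8.93 and 9.27 on WT_HFD and 5.05 and 5.22 on WT_RD. KO_RD was highest and WT_HFD next, the diet differences were -8.65 in the knockout and 3.97 in the wild type, and the interaction was -12.61 ± 0.20 (adjusted p = 4.1e-26). Gpx5, an epididymal glutathione peroxidase, measured 7.00 and 7.09 on the KO_HFD arrays, 13.77 and 14.09 on KO_RD, 7.15 and 6.85 on WT_HFD and 7.11 and 6.76 on WT_RD, high in KO_RD alone, with -6.95 ± 0.20. Cuzd1 measured 12.07 and 12.16 on the KO_HFD arrays, 12.56 and 12.43 on KO_RD, 12.98 and 13.08 on WT_HFD and 6.47 and 6.28 on WT_RD, here with WT_RD alone low and -7.03 ± 0.17.

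The lipocalins Lcn8 (-9.05 ± 0.20) and Lcn9 (-6.07 ± 0.21), the cystatins Cst12 (-6.44 ± 0.21) and Cst11 (-6.29 ± 0.21), Spint4 (-8.40 ± 0.20), a member of the Kunitz inhibitor family, and the metalloprotease-like Adam7 (-8.03 ± 0.22) made up much of the rest of the 12 lowest genes. So did Epp13 (-8.24 ± 0.19), the complement regulator C4bp (-8.23 ± 0.23) and Lcn2 (-7.63 ± 0.18), an iron-carrier lipocalin of inflammation. Lcn2 measured 7.36 and 7.45 on the KO_HFD arrays, 12.98 and 13.26 on KO_RD, 8.85 and 9.27 on WT_HFD and 7.18 and 7.10 on WT_RD, high in the same KO_RD arrays as Lcn5.

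Sperm transcripts followed WT_HFD instead. Prm1, the protamine that packs sperm DNA, measured 7.00 and 7.27 on the KO_HFD arrays, 7.76 and 7.69 on KO_RD, 9.65 and 9.66 on WT_HFD and 6.58 and 6.71 on WT_RD, and had -3.60 ± 0.18. The WT_HFD arrays lay above all others. Prm2 (-3.21 ± 0.24), the transition proteins Tnp2 (-2.93 ± 0.33) and Tnp1 (-1.74 ± 0.21), Smcp (-2.91 ± 0.20) of the sperm mitochondrial capsule and Ldhc (-2.43 ± 0.21) shared that pattern. For Tnp1 the next brightest probe set gave -0.27 (adjusted p = 0.44). Epithelial genes were negative in 14 of 31 and positive in 0, with a median of -0.57. Krt18, a keratin of simple epithelia, measured 7.82 and 7.83 on the KO_HFD arrays, 9.73 and 9.63 on KO_RD, 9.29 and 9.67 on WT_HFD and 7.71 and 7.46 on WT_RD, KO_RD and WT_HFD both above KO_HFD and WT_RD, and had -3.75 ± 0.18. Krt8 (-2.72 ± 0.17), the claudin Cldn3 (-2.48 ± 0.16) and E-cadherin, Cdh1 (-2.30 ± 0.25), were negative with the same groups high.

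**Figure D4:**
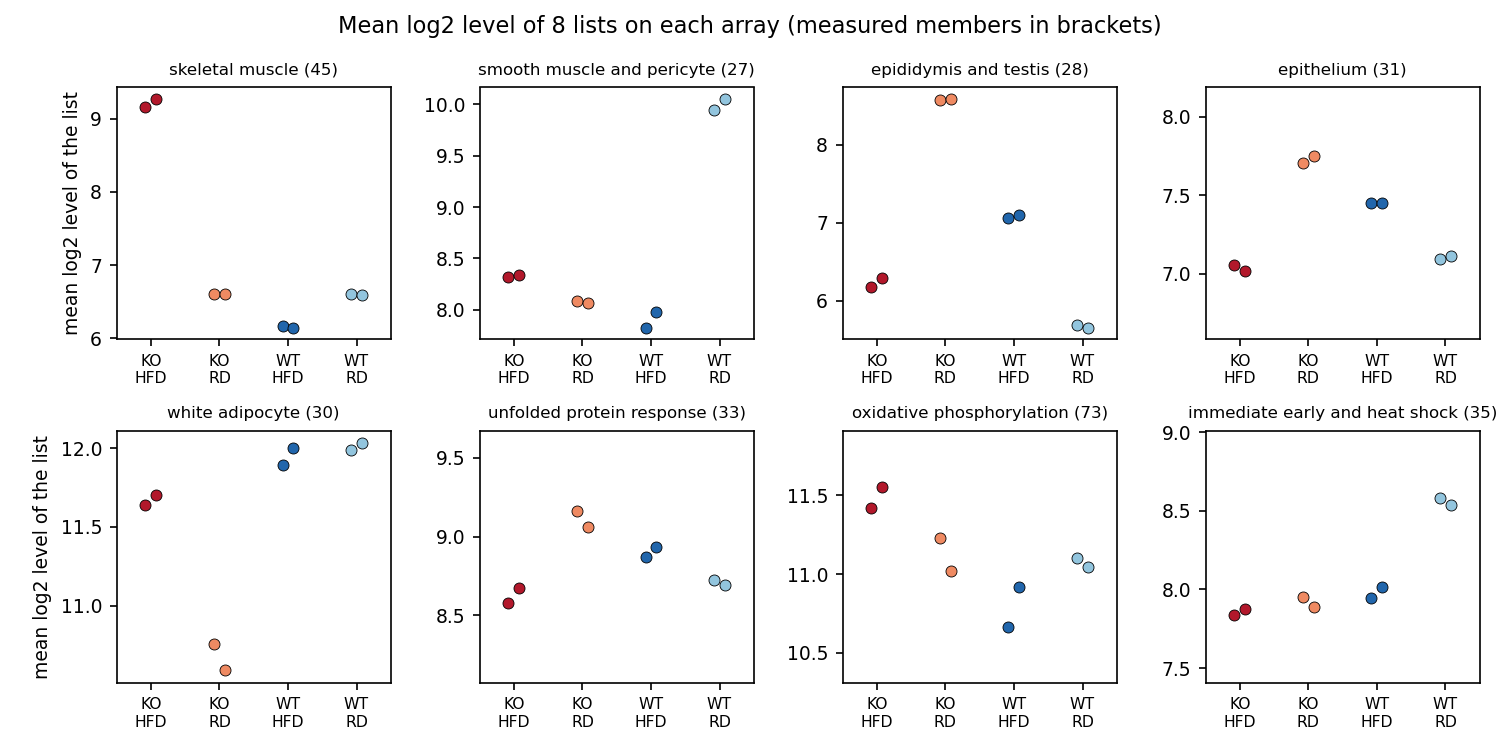
Mean log2 level of 8 gene lists on each array (points, 2 per group), with KO_HFD and KO_RD left of WT_HFD and WT_RD and the number of measured members in brackets. Skeletal muscle genes are high in KO_HFD (9.16 and 9.27), smooth muscle genes in WT_RD (9.94 and 10.05) and epididymis and testis genes in KO_RD (8.57 and 8.59), whereas white adipocyte genes are low in KO_RD (10.76 and 10.59).

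Genes of the unfolded protein response, by which cells enlarge the folding capacity of the endoplasmic reticulum, had a negative interaction. Of 33 measured, 17 were negative and 5 positive, with a median of -0.80, and KO_RD stood high in 9. The same KO_RD arrays were high for the epididymis and epithelium lists, and the part of those tissues in this result was not tested.

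Hspa5, the main chaperone of the endoplasmic reticulum, also called BiP, measured 10.14 and 10.33 on the KO_HFD arrays, 11.55 and 11.50 on KO_RD, 11.27 and 11.36 on WT_HFD and 10.57 and 10.60 on WT_RD. KO_RD and WT_HFD were high without overlap with KO_HFD and WT_RD, and the interaction was -2.02 ± 0.14 (adjusted p = 4.3e-12). Its next brightest probe set gave -0.41 (adjusted p = 0.18). Manf, a secreted folding-stress factor, measured 7.41 and 7.73 on the KO_HFD arrays, 9.55 and 9.35 on KO_RD, 8.66 and 8.96 on WT_HFD and 7.79 and 7.75 on WT_RD, in the same order of groups, with -2.92 ± 0.18.

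Pdia6, a disulfide isomerase, measured 9.15 and 9.30 on the KO_HFD arrays, 10.66 and 10.32 on KO_RD, 10.05 and 10.08 on WT_HFD and 8.85 and 8.79 on WT_RD and had -2.52 ± 0.16, although its next brightest probe set gave 0.00. Creld2 (-1.99 ± 0.20), the isomerases Pdia3 (-1.87 ± 0.20) and Pdia4 (-1.52 ± 0.18), Derl3 (-1.83 ± 0.20) of protein export from the compartment, and the chaperones Hsp90b1 (-1.49 ± 0.15) and Calr (-1.25 ± 0.16) were negative as well. The next brightest probe sets of Pdia3 and Pdia4 gave -0.30 (adjusted p = 0.35) and -0.33 (adjusted p = 0.37). With probe sets averaged by gene in place of the brightest, 15 of the 33 were negative and the median was -0.32.

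The 5 positive members included transcription factors and a synthetase. Xbp1, the factor spliced in this response, measured 12.12 and 12.18 on the KO_HFD arrays, 12.08 and 11.91 on KO_RD, 12.13 and 12.16 on WT_HFD and 13.10 and 13.12 on WT_RD, WT_RD being high, and had 1.12 ± 0.14. Atf4 had 0.45 ± 0.14 and Asns, the asparagine synthetase that Atf4 controls, 1.14 ± 0.14. The stress-induced Ddit3 (-0.39, adjusted p = 0.11), Trib3 (0.04, adjusted p = 0.93) and Chac1 (0.18, adjusted p = 0.51) did not pass.

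The endoplasmic reticulum stress element (ERSE) consists of CCAAT and CCACG separated by 9 or 10 bases, and is the site through which ATF6 with NF-Y acts on chaperone genes. RefSeq promoters of GRCm38.p6, from 250 bases before to 50 after the start, were searched on both strands for the 17 negative genes, 15 of which had a promoter in the table. A 9-base spacing was found in 9 of these 15 promoters (60.0%), against 0.119% of all 32851 promoters, and a 10-base spacing in 0, against 0.0426%. The UPRE core TGACGTGG was in 0 of the 15 and in 0.676% of all. These genes are textbook targets, so the matches describe the list, not the interaction. Of the 9 promoters that held the element, 4 are shown 5' to 3' on the strand of the gene, with the matched element in capitals.
Hspa5 (chr2:34771840-34772139, plus strand): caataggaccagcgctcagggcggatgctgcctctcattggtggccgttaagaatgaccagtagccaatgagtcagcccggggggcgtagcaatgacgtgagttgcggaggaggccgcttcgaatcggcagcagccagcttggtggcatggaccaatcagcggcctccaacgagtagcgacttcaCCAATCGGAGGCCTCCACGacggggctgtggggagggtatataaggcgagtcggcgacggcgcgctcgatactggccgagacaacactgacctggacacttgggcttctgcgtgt
Pdia6 (chr12:17266339-17266638, plus strand): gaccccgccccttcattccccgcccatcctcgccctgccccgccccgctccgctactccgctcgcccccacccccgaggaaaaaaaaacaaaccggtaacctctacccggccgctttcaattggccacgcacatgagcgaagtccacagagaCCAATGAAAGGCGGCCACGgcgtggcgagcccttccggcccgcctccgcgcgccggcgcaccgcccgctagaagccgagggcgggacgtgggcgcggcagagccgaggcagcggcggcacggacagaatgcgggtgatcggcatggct
Creld2 (chr15:88819396-88819695, plus strand): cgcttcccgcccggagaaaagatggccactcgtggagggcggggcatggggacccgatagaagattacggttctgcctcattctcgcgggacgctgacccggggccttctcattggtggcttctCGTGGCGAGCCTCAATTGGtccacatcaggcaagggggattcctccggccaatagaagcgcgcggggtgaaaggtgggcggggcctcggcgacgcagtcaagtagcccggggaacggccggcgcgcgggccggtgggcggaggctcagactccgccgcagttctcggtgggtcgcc
Hsp90b1 (chr10:86705395-86705694, minus strand): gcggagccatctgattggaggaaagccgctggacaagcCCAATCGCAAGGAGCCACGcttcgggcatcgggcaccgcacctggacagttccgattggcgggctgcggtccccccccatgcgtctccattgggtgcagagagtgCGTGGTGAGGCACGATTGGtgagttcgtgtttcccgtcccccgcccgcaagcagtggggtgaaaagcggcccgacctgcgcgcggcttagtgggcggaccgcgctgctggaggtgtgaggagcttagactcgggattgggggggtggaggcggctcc
Hspa5 and Pdia6 hold 1 element each on the strand of the gene, Creld2 holds 1 on the opposite strand, and Hsp90b1 holds 2, 1 on each strand.

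Genes outside the list that hold the element were counted too. Among all measured genes with an ERSE in the promoter table, 10 were on the unfolded protein response list, of which 9 were negative and 0 positive, with a median of -1.37. The other 21 held 0 negative and 3 positive genes, with a median of 0.01. Of 19 listed genes whose promoter had no ERSE, 6 were negative and 4 positive, with a median of -0.24. All 14453 measured genes with a promoter held 977 negative and 1756 positive ones, with a median of -0.02. The counts outside the list are too small to set apart from those shares.

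Immediate early and heat shock genes, which respond within minutes to handling, cell damage or hormones, were positive in 19 of 35 and negative in 1, with a median of 0.62, and WT_RD stood high in 14. The median was 0.35 when quantile normalization was applied again and 0.40 without WT_RD array a. Dusp1, a phosphatase that ends stress kinase signals, measured 7.99 and 8.14 on the KO_HFD arrays, 8.34 and 8.18 on KO_RD, 8.06 and 8.37 on WT_HFD and 9.95 and 10.11 on WT_RD, WT_RD above the rest, and had 1.62 ± 0.16. Cebpd, a factor of the acute phase and of early fat cell formation, measured 8.91 and 9.18 on the KO_HFD arrays, 8.60 and 8.35 on KO_RD, 9.02 and 9.17 on WT_HFD and 10.71 and 10.78 on WT_RD and had 2.23 ± 0.16, but its next brightest probe set gave -0.11 (adjusted p = 0.84). Egr1 (1.38 ± 0.15), Fos (1.12 ± 0.17) and the mRNA-decay protein Zfp36 (1.69 ± 0.15) were positive.

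Egr2 was the negative one (-2.01 ± 0.21) and was high in KO_RD. The inducible heat shock genes Hspa1a (-0.41, adjusted p = 0.12) and Hspa1b (-0.24, adjusted p = 0.37) did not pass. WT_RD, the high group here, was also the group with the lower 3' minus 5' signal of Gapdh and actin, and the smooth muscle list was high in the same arrays. The part of either in these values was not tested.

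The macrophage list had 11 of 38 genes positive (28.9%) and 4 negative (10.5%), with a median of 0.01. Over all genes the shares were 12.0% and 6.77%. Lyve1, a hyaluronan receptor of resident macrophages and lymphatic vessels, measured 6.23 and 6.35 on the KO_HFD arrays, 5.85 and 5.74 on KO_RD, 6.46 and 6.38 on WT_HFD and 7.87 and 7.59 on WT_RD, WT_RD alone high, with 1.80 ± 0.17. C1qb of complement (1.24 ± 0.18), Mrc1, the mannose receptor (0.96 ± 0.21), and Retnla (1.16 ± 0.15) were positive too. For C1qb the next brightest probe set gave 0.35 (adjusted p = 0.32). Gpnmb, a glycoprotein of lipid-laden macrophages, measured 7.20 and 7.52 on the KO_HFD arrays, 8.23 and 7.90 on KO_RD, 9.03 and 9.19 on WT_HFD and 7.31 and 7.47 on WT_RD, WT_HFD highest, with -2.43 ± 0.18, and its next brightest probe set gave 0.19 (adjusted p = 0.72). The general markers Adgre1 (0.20, adjusted p = 0.5) and Cd68 (-0.23, adjusted p = 0.53) did not pass.

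Lysosomal genes were positive in 5 of 30 (16.7%) and negative in 7 (23.3%), against 12.0% and 6.77% of all genes. Their median was 0.02, and WT_HFD stood high in 5 of them. Leaving out 1 array at a time gave 1 to 5 positive, the lowest without WT_HFD array a, and 4 to 7 negative, the lowest without KO_HFD array a. Ctsh, cathepsin H, measured 7.16 and 7.35 on the KO_HFD arrays, 9.16 and 8.81 on KO_RD, 8.62 and 8.79 on WT_HFD and 7.67 and 7.65 on WT_RD, KO_RD and WT_HFD being high, and had -2.77 ± 0.17. Npc2, the lysosomal cholesterol carrier, measured 13.31 and 13.36 on the KO_HFD arrays, 13.46 and 13.46 on KO_RD, 14.03 and 13.99 on WT_HFD and 12.96 and 12.96 on WT_RD, WT_HFD high and WT_RD low, with -1.17 ± 0.14. Glb1 (-1.44 ± 0.19) and Man2b1 (-1.20 ± 0.16), which cleave sugars from glycoproteins, followed. Npc2 and these glycosidases are also made by the epididymis, and the part of that tissue was not tested.

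Chemokines and acute-phase genes were positive in 7 of 35 (20.0%) and negative in 2 (5.71%), with a median of 0.05. Over all genes the shares were 12.0% and 6.77%. Without KO_HFD array b or WT_HFD array a, 4 were positive. Orm1, an acute-phase plasma protein, measured 8.20 and 8.40 on the KO_HFD arrays, 6.68 and 6.64 on KO_RD, 8.28 and 8.60 on WT_HFD and 9.22 and 9.34 on WT_RD, KO_RD low, with 2.48 ± 0.16. Ccl9 (1.69 ± 0.15) and Ccl6 (1.67 ± 0.16), chemokines of myeloid cells, were low in the same arrays. Ccl2, which recruits monocytes, did not pass (0.40 ± 0.20, adjusted p = 0.2).

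**Figure D5:**
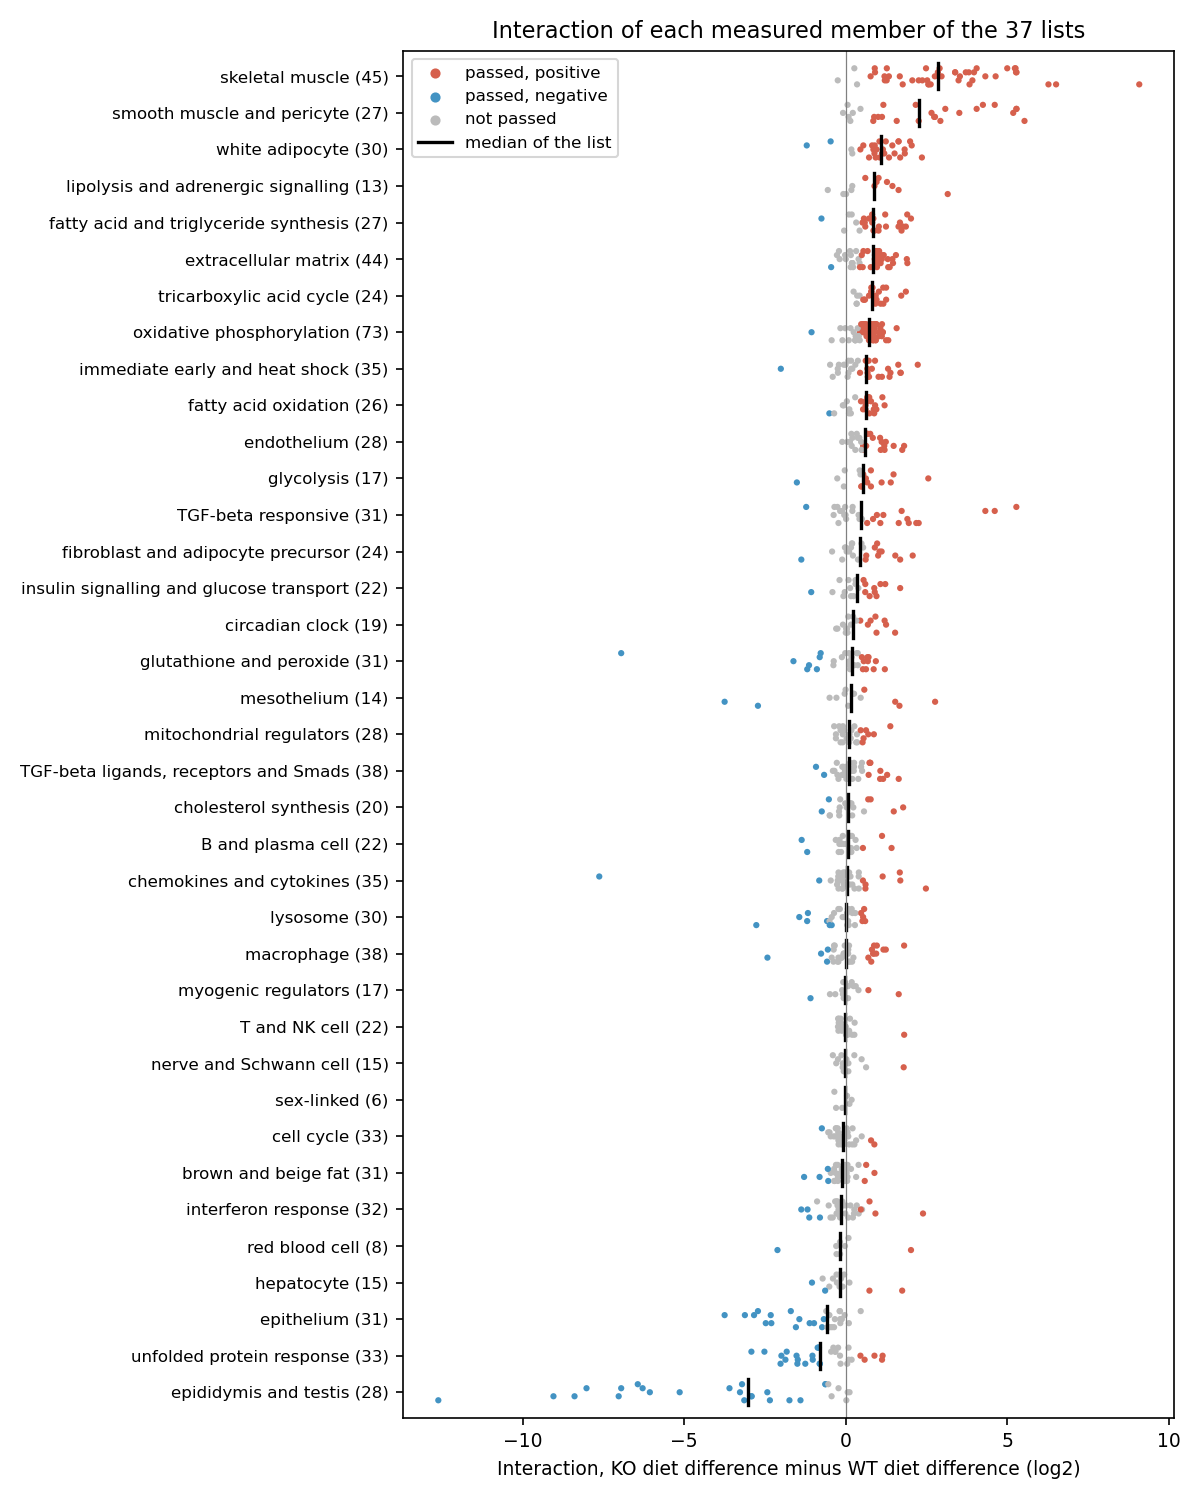
Interaction (log2) of each measured member of 37 gene lists (points; number measured in brackets), lists ordered by their median (black bar), with red for positive genes that passed, blue for negative ones and grey for those that did not. Skeletal muscle (median 2.85) and smooth muscle (2.26) lie at the top, epididymis and testis (-3.04) and the unfolded protein response (-0.80) at the bottom, and brown and beige fat (-0.11) close to 0.

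The antibody arrays give these genes a readout that shares no array with the interaction. Both comparisons came from the same fit, with the same probe sets and a shared estimate of the spread of each gene. A gene with a small spread could therefore pass more easily in both. The antibody against TGF-beta minus IgG passed in 4423 genes (24.3%), of which 2135 (11.7%) were higher and 2288 (12.6%) lower with the antibody. Of the 2181 positive interaction genes, 646 (29.6%) were higher with the antibody and 311 (14.3%) lower. For the 1232 negative ones the counts were 128 higher (10.4%) and 233 lower (18.9%).

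The shares differed by pattern. Of the 219 genes high in KO_HFD, 168 (76.7%) were higher with the antibody and 3 lower, and of the 63 genes low in KO_HFD, 0 were higher and 27 (42.9%) lower. Of the 56 genes low in WT_HFD, 30 were higher (53.6%) and 4 lower. Genes low in KO_RD were higher in 113 and lower in 156 of 797, those high in KO_RD higher in 30 and lower in 40 of 310, and those high in WT_RD higher in 78 and lower in 60 of 383.

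Among all genes, 11.7% were higher with the antibody and 12.6% lower. By list, 44 of 45 skeletal muscle, 56 of 73 oxidative phosphorylation and 24 of 26 fatty acid oxidation genes were higher. Smooth muscle genes were higher in 10 of 27. Epididymis and testis genes were higher in 3 of 28, close to the share of all genes. Of the extracellular matrix genes, positive for the interaction in 28 of 44, 28 were lower and 4 higher with the antibody. White adipocyte genes were higher in 7 and lower in 9 of 30. Macrophage genes were lower in 28 of 38 and lysosomal genes in 24 of 30, and brown and beige fat genes were higher in 23 of 31. Myh7 differed by 5.93 (adjusted p = 8.8e-23), Cnn1 by 0.94 (adjusted p = 9.9e-07) and Lcn5 by 0.09 (adjusted p = 0.71). Ucp1, with an interaction of -0.54, differed by 6.93 with the antibody. The skeletal muscle list was therefore high both in KO_HFD and with the antibody, and the part of muscle in the shared calls was not tested.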

How the data were processed

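Each of 12 Affymetrix arrays took 6 ug of total RNA, as the labels' protocols say. The authors deposited log2 intensities from RMA in Partek, per the submitters' processing notes, with versions not given in the sources used here. Each gene was given its probe set of highest mean over the 12 arrays, among those naming that gene alone: 34958 of 45101 probe sets named 1 gene, 932 named several and 9211 had no gene name, and 18032 of 18194 genes matched a GRCm38.p6 table by ID.

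Group means of all 12 arrays were fitted with limma 3.58.1 (R 4.3.3; lmFit, then eBayes with a trend over intensity). Tests were two-sided, p-values were adjusted by Benjamini and Hochberg's method across the 18194 genes, and an adjusted p under 0.05 passed. There were 6 residual and 20.4 prior degrees of freedom, and genes that passed had standard errors of 0.14 to 0.33. The number of arrays limits the precision. Medians of the antibody arrays were 6.03 to 6.04, against 6.32 to 6.39 for the 8 others, so the 2 sets may have been normalized separately and were not compared with each other.

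Members, 37 gene lists and tests were chosen with earlier results of these data known. Named genes are the 12 highest and 12 lowest that passed (passing over expressed-sequence and immunoglobulin symbols), up to 4 of each list by smallest p, and preset genes. Other list members named in the text, such as Fads2, Atpif1, Cpt1a or those that did not pass, were chosen after their values were seen. Lists are described by counts and medians, without a set test. Letters a and b were not treated as pairing the samples. Differences of a minus b correlated at -0.16 to 0.17 between groups, which cannot show whether the letters pair them. Alternatives were 19 settings, listed with their effect in the closing section.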

Additional observations from a re-analysis of the deposited data

Results flagged for a closer look

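The interaction is itself a test of whether the effect of diet differed between Smad3-/- and wild-type mice, so each gene that passed is a difference between groups. There were 3413 such genes, 2181 positive and 1232 negative. The 12 lowest interactions, in log2, were -12.61 for Lcn5, -9.05 for Lcn8, -8.40 for Spint4, -8.24 for Epp13, -8.23 for C4bp, -8.03 for Adam7, -7.63 for Lcn2, -7.03 for Cuzd1, -6.95 for Gpx5, -6.44 for Cst12, -6.29 for Cst11 and -6.07 for Lcn9. The 12 highest were 9.08 for Tnnc2, 6.51 for Ckm, 6.27 for Acta1, 5.53 for Pdlim3, 5.29 for Tpm2, 5.28 for Cnn1, 5.27 for Myl2, 5.25 for Mybpc1, 5.23 for Tnnt3, 5.18 for Myh11, 5.00 for Myh7 and 4.64 for Tnni2. Of the other named genes, 120 passed. Groups of 2 arrays are too small to look for a single array far from the others.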

How the results depend on the processing

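Each result was recomputed under 19 other settings: eBayes without a trend or robust, the dimmest genes dropped, probe sets averaged by gene, each probe set tested separately, median-centred arrays, quantile normalization applied again, the 8 arrays only, arrayWeights, a replicate block, a minimum of 1.5-fold, and each of 8 arrays left out, where the spread of the lone array is assumed equal to that of other groups. With the minimum of 1.5-fold, 941 genes passed, 567 positive and 374 negative, as a stricter test. Leaving out 1 array gave 2736 to 3433 genes, 1697 to 2275 positive and 1018 to 1158 negative. The replicate block gave 3408 genes (2172 positive and 1236 negative), 3357 of them shared with the 3413. The positive share of calls was 63.9%, but 55.4% with quantile normalization applied again (1943 of 3508) and 70% with centred arrays (2407 of 3440). Over the 172 named genes, no interaction that passed changed sign, 116 of 144 passed in every setting they entered (105 in all 19, and 11 in 18, being left out as dim in 1), and 7 of 28 that had not passed did so in some setting. Of 1914 genes that passed and had a next brightest probe set, it had the same sign in 1551 (81.0%), against 59.2% among other genes, passed with that sign in 747, and passed with the opposite sign in 7. The cause was not tested. With 2 arrays a group, a tissue that differed between whole groups could not be left out.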

Other observations

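Endothelial genes had a positive interaction in 16 of 28 measured and a negative one in 0, with a median of 0.58. Vwf, the clotting factor carrier of vessel walls, measured 8.25 and 8.21 on the KO_HFD arrays, 7.13 and 7.01 on KO_RD, 7.78 and 7.87 on WT_HFD and 8.24 and 8.05 on WT_RD, KO_RD being low, and had 1.48 ± 0.16. The fatty acid transporters Cd36 (1.24 ± 0.15) and Fabp5 (1.75 ± 0.16), which fat cells also make, and the lipase anchor Gpihbp1 (0.84 ± 0.14) were positive, but the defining markers Pecam1 (0.29, adjusted p = 0.21) and Kdr (-0.11, adjusted p = 0.76) did not pass. Of 14 mesothelial genes, 4 were positive (28.6%) and 2 negative (14.3%), against 12.0% and 6.77% of all genes. The negative ones were the keratins Krt8 and Krt18 that epithelia share. Upk3b, a mesothelial membrane protein, measured 9.04 and 9.07 on the KO_HFD arrays, 7.26 and 6.89 on KO_RD, 8.37 and 8.40 on WT_HFD and 9.11 and 9.24 on WT_RD and had 2.76 ± 0.16, its next brightest probe set giving 1.46. Clock genes were positive in 8 of 19 and negative in 0, with a median of 0.23. Dbp, a clock output factor, measured 10.06 and 10.31 on the KO_HFD arrays, 9.49 and 9.31 on KO_RD, 9.55 and 9.79 on WT_HFD and 10.16 and 10.10 on WT_RD, KO_HFD and WT_RD being above KO_RD and WT_HFD, and had 1.25 ± 0.16. Nr1d1, a repressor of the clock, had 1.20 ± 0.16.

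Genes of glutathione and peroxide metabolism were positive in 10 of 31 (32.3%) and negative in 7 (22.6%), with a median of 0.18. Gpx3, the secreted glutathione peroxidase, measured 13.13 and 13.14 on the KO_HFD arrays, 12.96 and 12.85 on KO_RD, 13.46 and 13.45 on WT_HFD and 11.60 and 11.60 on WT_RD, WT_RD alone being low, and had -1.62 ± 0.14. The cytosolic Gpx1 measured 12.83 and 12.93 on the KO_HFD arrays, 11.79 and 11.41 on KO_RD, 12.99 and 13.05 on WT_HFD and 12.96 and 12.94 on WT_RD, KO_RD alone being low, and had 1.21 ± 0.16. Interferon response genes were positive in 4 of 32 (12.5%) and negative in 4 (12.5%), against 12.0% and 6.77% of all genes. Ifi27l2a measured 12.44 and 12.52 on the KO_HFD arrays, 10.12 and 9.87 on KO_RD, 11.86 and 12.14 on WT_HFD and 11.91 and 11.91 on WT_RD, low in KO_RD, with 2.39 ± 0.16. The antiviral Ifit3 measured 5.98 and 6.23 on the KO_HFD arrays, 5.90 and 5.78 on KO_RD, 7.24 and 7.44 on WT_HFD and 5.69 and 6.09 on WT_RD, high in WT_HFD, with -1.18 ± 0.21. Cholesterol synthesis genes were positive in 4 of 20 (20.0%) and negative in 2 (10.0%). Among them were Sc5d at 1.78 ± 0.14 (0.79 on its next brightest probe set) and Sqle at -0.74 ± 0.15.

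Against 18.8% of all genes, the genes that passed on lists of other cells were 1 of 22 T and NK cell genes (Gata3, 1.81 ± 0.22), 5 of 22 B and plasma cell genes (3 positive and 2 negative), 3 of 33 cell cycle genes (2 positive and 1 negative), 1 of 15 nerve genes (Pmp22, 1.79 ± 0.15) and 2 of 8 red blood cell genes (Alas2, 2.02 ± 0.16, and Car2, -2.12 ± 0.19). Hepatocyte genes were positive in 2 and negative in 2 of 15, or negative in 1 without either WT_HFD array or WT_RD array a. Of these Cyp2e1, which fat tissue also expresses, measured 14.15 and 14.14 on the KO_HFD arrays, 13.11 and 13.06 on KO_RD, 13.13 and 13.11 on WT_HFD and 13.78 and 13.83 on WT_RD and had 1.74 ± 0.14.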
